A study of Mus musculus with 12 samples.

Results

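The type I interferon-stimulated genes described here are a list of 40 genes that interferon-alpha and interferon-beta are known to switch on. They were found by matching each listed symbol to the gene names of the deposited expression table, and 39 of the 40 were among its 13935 genes. Ifi44 was not analysed here. RNA was sequenced from neutrophils that had been flow sorted as CD45+CD11b+Ly6G+ cells from mouse femur bone marrow, in a series on Socs3 deficiency, neutrophil activation and reactive oxygen species in a brain-targeted model of multiple sclerosis. All 4 groups were cultured for 8 h in medium with serum, and each held 3 libraries. The floxed groups carried Socs3fl/fl without Cre, and the LysMcre-labelled groups carried LysMCre and Socs3fl/fl, so both genotypes had the floxed alleles. In 1 group of each genotype, recombinant mouse G-CSF was added at 10 ng/ml, and the other group of that genotype was untreated. Cre driven by the lysozyme M promoter is active in neutrophils and in other myeloid cells. The sources used here give no age of the mice, and no label ties the libraries of a group to different animals. All p-values below therefore rest on the variation among these 12 libraries, and that variation may be technical.

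Type I interferons bind the IFNAR1 and IFNAR2 receptor, whose kinases TYK2 and JAK1 phosphorylate STAT proteins. These join IRF9 in the factor ISGF3, which binds interferon-stimulated response elements in front of antiviral genes. G-CSF signals through its own receptor, mainly by JAK2 and STAT3, and SOCS3 restrains that receptor. Bone marrow neutrophils are known to include cells that express antiviral genes of this kind without infection.

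The promoter stretches of 5 members are shown because the same response element letters recur in the IFIT cluster, in Isg15 and in Rsad2. The letters searched were GAAA, any 2 bases and GAAA again, the core of the interferon-stimulated response element, on both strands. Capitals mark bases of a match, with overlapping matches joined, so a match on the reverse strand begins with TTTC and ends with TTTC. The sequences come from RefSeq promoter windows on GRCm38.p6, each written on its gene's own strand, and the stretches printed overlap no annotated exon. The stretch of Ifit1 lies at chr19:34640744-34640870 on the plus strand and fills the 127 bases between the starts of Ifit1bl2 and Ifit1 in the GENCODE annotation, which are read in opposite directions. The stretch of Ifit3 lies at chr19:34583279-34583478 on the plus strand and that of Ifit3b at chr19:34607707-34607906 on the plus strand. The stretch of Isg15 lies at chr4:156200869-156201068 on the minus strand and that of Rsad2 at chr12:26456503-26456702 on the minus strand.
Ifit1: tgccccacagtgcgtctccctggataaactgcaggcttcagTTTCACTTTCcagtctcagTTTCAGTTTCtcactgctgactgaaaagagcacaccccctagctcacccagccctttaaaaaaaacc
Ifit3: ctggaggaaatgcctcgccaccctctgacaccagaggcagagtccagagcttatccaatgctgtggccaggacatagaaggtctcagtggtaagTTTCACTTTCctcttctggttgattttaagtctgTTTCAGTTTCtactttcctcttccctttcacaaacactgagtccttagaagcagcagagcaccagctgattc
Ifit3b: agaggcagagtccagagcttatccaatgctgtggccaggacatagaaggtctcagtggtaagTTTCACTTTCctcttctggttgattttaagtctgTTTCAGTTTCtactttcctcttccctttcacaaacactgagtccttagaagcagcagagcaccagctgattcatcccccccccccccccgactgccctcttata
Isg15: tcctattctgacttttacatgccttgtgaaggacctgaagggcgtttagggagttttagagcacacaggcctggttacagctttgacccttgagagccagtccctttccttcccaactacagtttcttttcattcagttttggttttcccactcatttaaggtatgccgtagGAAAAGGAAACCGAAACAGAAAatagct
Rsad2: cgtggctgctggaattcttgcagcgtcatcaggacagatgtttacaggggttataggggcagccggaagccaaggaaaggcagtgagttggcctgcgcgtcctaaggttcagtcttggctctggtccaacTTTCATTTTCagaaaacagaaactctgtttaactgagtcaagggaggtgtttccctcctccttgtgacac

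Both matches in the stretch of Ifit1 also lie in the window of Ifit1bl2, 51 and 70 bases before its start. Ifit3 and Ifit3b share a run of 168 identical bases in the stretches shown, which holds both of their matches. Isg15 has 3 overlapping matches and Rsad2 has 1. RefSeq windows of 250 bases before to 50 bases after a start were found for 30 members, with 38 windows among them. The letters occurred in 34.2% of these windows and in 3.44% of all 32851 mouse windows of that length. The 13 members with a match were Ifih1, Ddx58, Ifit1, Ifit3, Ifit3b, Ifit1bl2, Oas3, Isg15, Rsad2, Eif2ak2, Bst2, Ifitm2 and Ifitm3. The letters TTCNNNGAA, the form of the gamma-activated site that STAT dimers bind, occurred in 18.4% of the member windows and in 8.30% of all windows, on either strand. A match of letters is a description and not a measured binding site.

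Each library held between 19495754 and 26472118 reads over the genes in the table, recovered from the deposited normalized counts, so that 3 reads correspond to 2.57 to 3.54 normalized counts. For 3 libraries the title leaves out Socs3fl/fl and says Untreated, while the description and the condition say G-CSF, and they were placed in the LysMcre-labelled G-CSF group. Socs3 itself was not lower in the LysMcre-labelled groups. Its normalized counts were 225, 201 and 248 in the floxed untreated libraries, 313, 311 and 253 in the LysMcre-labelled untreated ones, 21391, 18533 and 18588 in the floxed G-CSF libraries, and 35984, 37668 and 38354 in the LysMcre-labelled G-CSF ones. A gene-level count cannot show whether reads came from the deleted stretch, so it does not check the deletion. Lyz2, the locus that usually carries LysM-Cre, was at 219608 to 226031 in the floxed untreated libraries and at 5646 to 6602 in the LysMcre-labelled untreated ones. With G-CSF it was at 44425 to 49035 in the floxed libraries and at 507 to 637 in the LysMcre-labelled ones. Both match the genotype labels. No group carried LysMCre without Socs3fl/fl, so Socs3 deletion, Cre itself and the lower Lyz2 cannot be told apart in a genotype difference. All 15 neutrophil markers were measured in every library, with a summed level of 1851416 to 2196350.

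G-CSF was followed by higher levels of most members in both genotypes, by between 1.24-fold and 57.2-fold in the floxed groups, with Ifitm1 far above all others. In LysMcre-labelled neutrophils a smaller set, led by Cmpk2 and Ifit1bl2, was lower with G-CSF than without it. With G-CSF present, all 5 measured IFIT genes, Cmpk2, Rsad2 and Mov10 were lower in LysMcre-labelled than in floxed neutrophils, while Irf1, Ifitm1 and Ifitm2 were higher. Without G-CSF no member passed the test between the genotypes, but the median member difference was -0.41 there and -0.31 with G-CSF. The untreated median was -0.14 when floxed untreated replicate 3 was left out. A call with G-CSF alone does not show that the difference depended on G-CSF. Among the genes named as lower, the genotypes' G-CSF responses differed past the threshold for Ifit1bl2, Cmpk2 and Mov10, not for Rsad2 or the other IFIT genes. All differences are on the log2(normalized count + 1) scale, were tested with limma over all 13915 genes with a mean of at least 10 normalized counts, and were called at a Benjamini-Hochberg adjusted p under 0.05. In bulk RNA, fewer cells of a type and less RNA per cell cannot be told apart. The map of the members by library shows the G-CSF response, the genotype difference and the spread within groups side by side.

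**Figure D1:**
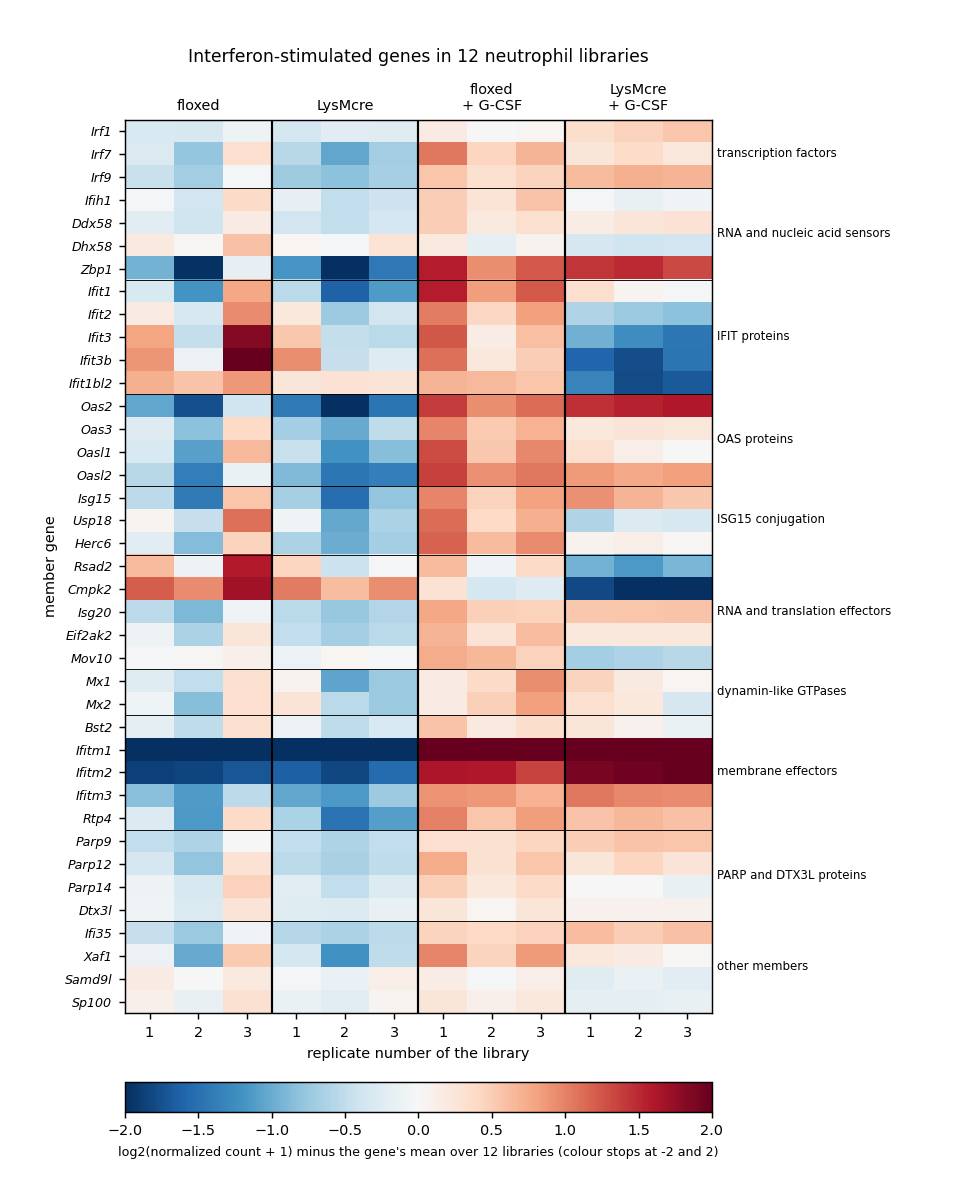
Each member (vertical axis, grouped by role) in each of the 12 libraries (horizontal axis, replicate numbers within the 4 groups); the colour gives the log2(normalized count + 1) minus that member's mean over all libraries. Most members are higher in the G-CSF libraries, Cmpk2 and several IFIT genes are lowest in the LysMcre-labelled G-CSF libraries, and replicate 3 of the floxed untreated group stands above the other libraries of its group.

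In floxed neutrophils 26 of 39 members passed the test between libraries with and without G-CSF, against 48.8% of all genes tested. G-CSF raised 25 of them, against 24.1% of all genes, and lowered 1, against 24.6%. The median member difference was 0.69 on the log2 scale, and that of all genes was 0.00. In LysMcre-labelled neutrophils 32 of 39 members passed, against 62.6% of all genes. There G-CSF raised 24 members, against 31.1% of all genes, and lowered 8, against 31.6%, with a median member difference of 0.80. In the floxed groups 20 members had all G-CSF libraries above all untreated ones, against 27.5% of all genes, and 1 had them all below, against 28.6%. In the LysMcre-labelled groups 25 members had all G-CSF libraries above, against 33.6% of all genes, and 8 had them all below, against 34.0%. The 22 members that rose in both genotypes were Irf1, Irf7, Irf9, Ddx58, Zbp1, Ifit1, Oas2, Oas3, Oasl1, Oasl2, Isg15, Herc6, Isg20, Eif2ak2, Ifitm1, Ifitm2, Ifitm3, Rtp4, Parp9, Parp12, Ifi35 and Xaf1. Without floxed untreated replicate 3, 30 members rose and 1 fell in the floxed comparison, and without floxed untreated replicate 2, 22 rose and 3 fell. The shares of all genes under these leave-outs are not given here.

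**Figure D2:**
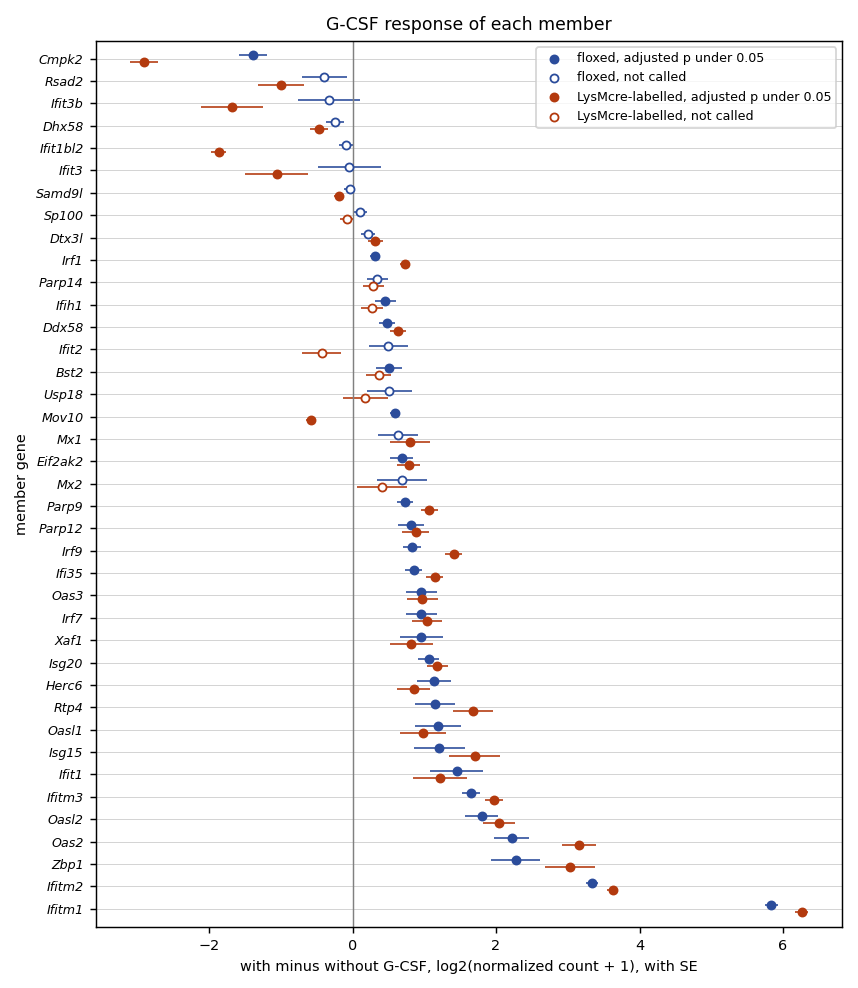
G-CSF response of each member (vertical axis) as the difference between libraries with and without G-CSF on the log2(normalized count + 1) scale (horizontal axis), in floxed (blue) and LysMcre-labelled (red) neutrophils; bars are 1 SE and filled points passed limma at an adjusted p under 0.05. Ifitm1 lies at 5.84 and 6.26, Mov10 on opposite sides of 0, and Cmpk2 at -1.39 and -2.91.

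Between the genotypes with G-CSF present, 18 of 39 members passed the test, against 36.0% of all genes. Of these, 3 were higher in the LysMcre-labelled libraries, against 17.1% of all genes, and 15 were lower, against 18.9%. The median member difference was -0.31, that of all genes was -0.01, and 30 of 39 members lay below 0. All LysMcre-labelled libraries lay below all floxed ones for 21 members, against 23.1% of all genes, and above them for 8, against 22.4%. By role, the lower members were all 5 IFIT genes, 2 of 3 genes of ISG15 conjugation, 3 of 5 effectors of nucleotide, RNA and translation control, 2 of 4 sensors, 1 of 4 PARP and DTX3L genes and 2 of the other 4 members. The 4 OAS genes did not pass, with differences from -0.79 (Oasl1) to 0.38 (Oas2). Oas3 and Oasl1 did pass with libraries scaled to equal totals and with the replicate number as a block. In a fit of the G-CSF groups alone all 4 OAS genes passed, Oas2 on the higher side, and 26 members passed in all, 5 higher and 21 lower, against 32.6% of all genes in that fit. Some cell type markers were also called in this comparison, against 17.1% higher and 18.9% lower among all genes. Of 15 neutrophil markers 2 were higher and 7 lower, and of 11 monocyte and macrophage markers 1 was higher and 2 lower. Of 7 T and NK cell markers 2 were lower, and of 6 stroma and endothelium markers 2 were higher. Of 9 plasmacytoid dendritic cell markers 1 was lower, of 8 conventional ones 1 was higher and 1 lower, and of 8 B cell markers 1 was higher. No erythroid, eosinophil, basophil or mast cell marker was called. The stroma and endothelium markers summed to 780.1 to 849 normalized counts in the floxed G-CSF libraries and to 1353 to 1578 in the LysMcre-labelled ones, and the T and NK cell markers to 250.2 to 286 and 219 to 265, none of them at 0. Between libraries with and without G-CSF, 6 neutrophil markers rose and 7 fell in floxed, and 5 and 7 in LysMcre-labelled neutrophils. Of the monocyte and macrophage markers, 6 rose and 2 fell in floxed, and 4 and 3 in LysMcre-labelled ones. The shares of all genes for these responses stand above. T and NK cell sums without G-CSF were 426 to 499 in floxed and 496 to 546 in LysMcre-labelled libraries. The part of these markers in the member differences and in the G-CSF responses was not tested.

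**Figure D3:**
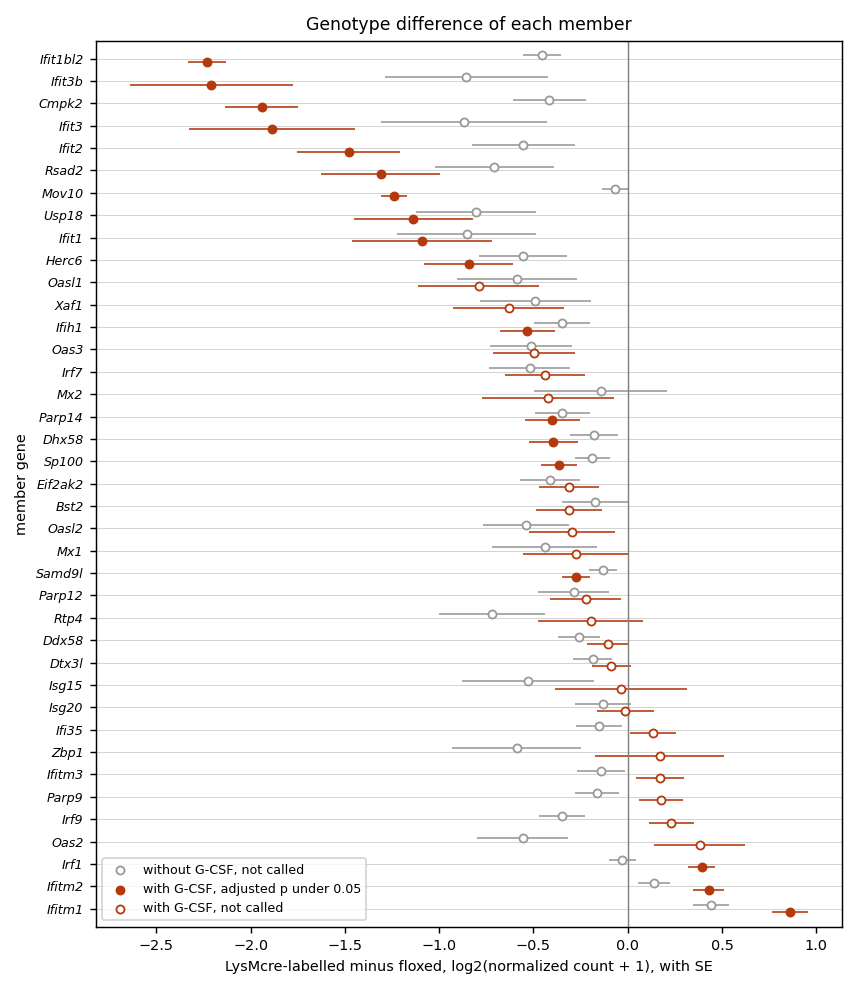
Difference between LysMcre-labelled and floxed neutrophils for each member (vertical axis) on the log2(normalized count + 1) scale (horizontal axis), without G-CSF (grey) and with G-CSF (red); bars are 1 SE and filled points passed limma at an adjusted p under 0.05. No grey point is filled, 15 red points left of 0 and 3 right of 0 are filled, and Ifit1bl2 lies furthest left at -2.23.

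The difference between the 2 G-CSF responses was tested as an interaction term. It passed for 6 of 39 members, or 15.4%, against 22.4% of all genes. In the floxed untreated group the members spread more than all genes, with a median SD of 0.42 against 0.12. The count also moved when single libraries were left out, so the 2 shares are not read as a difference. The response was higher in LysMcre-labelled neutrophils for Irf1, Irf9 and Ifitm1, or 3 members against 10.9% of all genes. It was lower for Ifit1bl2, Cmpk2 and Mov10, or 3 members against 11.5%. The 3 that were lower passed under all 22 alternative settings, whereas on the higher side 1 member, Irf1, remained with quantile normalization (1 higher, 3 lower), with equal library totals (1 higher, 4 lower) and without the trended prior (1 higher, 3 lower). Leaving out floxed untreated replicate 2 gave 11 members, 8 higher and 3 lower, and leaving out floxed untreated replicate 3 gave 9, of which 2 were higher and 7 lower. The latter 7 included Ifit2 at -1.27, Ifit3 at -1.57, Ifit3b at -1.90 and Rsad2 at -1.04. Shares of all genes under these 2 leave-outs are not given here, so the member counts cannot be set against the whole table.

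Without G-CSF, 0 of 39 members passed limma between the genotypes, against 0.115% of all genes. At an unadjusted p under 0.05, 17 members differed, against 3.34% of all genes, and 16 of them were lower in the LysMcre-labelled libraries, against 1.39%. edgeR called 0 members and 13 of all genes, and DESeq2 called 2 members and 28 of all genes. The 2 members were Ifitm1 at 0.45 and Ifit1bl2 at -0.46. The member differences ran from -0.87 for Ifit3 to 0.44 for Ifitm1, with a median of -0.41 against -0.01 for all genes, and 37 of 39 lay below 0. The size of these values depended most on 1 library, since without floxed untreated replicate 3 the median was -0.14 and 30 members lay below 0. It was -0.27 without LysMcre-labelled untreated replicate 2 and -0.54 without floxed untreated replicate 2, with 37 members below 0 in each case. The untreated groups did not overlap for 2 members, Ifit1bl2 on the lower side, against 5.4% of all genes, and Ifitm1 on the higher side, against 3.93%.

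The transcription factors rose with G-CSF in both genotypes. Irf1, which binds interferon response elements, was at 3479.8, 3455 and 4012 normalized counts in the floxed untreated libraries and at 3373, 3692 and 3637 in the LysMcre-labelled untreated ones. With G-CSF it was at 4822, 4303 and 4444 in the floxed libraries and at 5513, 5963 and 6360.1 in the LysMcre-labelled ones. The G-CSF libraries lay above the untreated ones in both genotypes, and the LysMcre-labelled G-CSF libraries lay above the floxed G-CSF ones. The log2 difference with G-CSF was 0.31 in floxed neutrophils (limma adjusted p = 0.00194) and 0.74 in LysMcre-labelled ones (limma adjusted p = 2.57e-07). The responses differed by 0.42 (SE 0.10, limma adjusted p = 0.00674), and the genotypes with G-CSF by 0.39 (SE 0.07, limma adjusted p = 4.78e-04).

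Irf9, the DNA-binding part of ISGF3, was at 1654, 1394 and 2220.1 normalized counts in the floxed untreated libraries, at 1377, 1268 and 1419.6 in the LysMcre-labelled untreated ones, at 3311, 2816 and 3077 in the floxed G-CSF libraries and at 3495, 3679 and 3606 in the LysMcre-labelled G-CSF ones. All G-CSF libraries were above all untreated ones, and the untreated genotypes overlapped. Irf9 rose by 0.83 in floxed neutrophils (limma adjusted p = 3.28e-05) and by 1.41 in LysMcre-labelled ones (limma adjusted p = 5.53e-08). Its responses differed by 0.58 (SE 0.17, limma adjusted p = 0.0227), and this call was lost under 6 of 22 alternatives, with adjusted p from 0.0528 to 0.0802. Those 6 included leaving out replicate 2 of the floxed G-CSF group, of the LysMcre-labelled G-CSF group or of the LysMcre-labelled untreated group. Irf7, which drives later interferon-alpha genes, rose by 0.96 in floxed and 1.04 in LysMcre-labelled neutrophils, and with G-CSF it was at 2709 ± 601 in floxed and 1966 ± 100.2 in LysMcre-labelled libraries (SD, n = 3), a difference that did not pass.

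Among the sensors, Zbp1 moved most. It encodes a sensor of left-handed nucleic acid that can start necroptosis. Zbp1 was at 293, 143 and 503 normalized counts in the floxed untreated libraries, at 249, 119 and 209 in the LysMcre-labelled untreated ones, at 1682, 1074 and 1329 in the floxed G-CSF libraries and at 1521, 1588 and 1417 in the LysMcre-labelled G-CSF ones. Every G-CSF library was above every untreated one, while the genotypes overlapped at both conditions. Zbp1 rose 4.83-fold in floxed neutrophils (2.27, SE 0.34, limma adjusted p = 4.85e-05) and 8.17-fold in LysMcre-labelled ones (3.03, limma adjusted p = 1.43e-06), and the responses did not differ past the threshold (0.76, limma adjusted p = 0.317). Ddx58, which encodes the RNA sensor RIG-I, rose by 0.48 and 0.63. Ifih1, which encodes MDA5, rose by 0.45 in floxed neutrophils, a call lost under 5 of 17 alternatives, and was lower in LysMcre-labelled than in floxed libraries with G-CSF, at 545 ± 22.4 against 791 ± 81.9 normalized counts (SD, n = 3), a difference of -0.53. Dhx58, which encodes the related helicase LGP2, fell by 0.47 in LysMcre-labelled neutrophils, where it was at 1007 ± 114 without and 726 ± 16.1 with G-CSF.

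The IFIT genes encode tetratricopeptide proteins that bind viral RNA, and the 5 measured members lie side by side on chromosome 19 between positions 34550694 and 34650009 (GRCm38). They split in their G-CSF response. Ifit1, which recognises RNA without cap methylation, was at 281, 152 and 598 normalized counts in the floxed untreated libraries, at 239.8, 113 and 159 in the LysMcre-labelled untreated ones, at 1037, 624 and 817 in the floxed G-CSF libraries and at 441, 361 and 342 in the LysMcre-labelled G-CSF ones. Within each genotype all G-CSF libraries lay above all untreated ones, and with G-CSF all LysMcre-labelled libraries lay below all floxed ones. Ifit1 rose 2.74-fold in floxed neutrophils (1.45, limma adjusted p = 0.00411) and 2.33-fold in LysMcre-labelled ones (1.22, limma adjusted p = 0.00959), the latter lost without LysMcre-labelled untreated replicate 2 (0.96). It was lower in LysMcre-labelled than in floxed libraries with G-CSF by 2.13-fold (-1.09, SE 0.37, limma adjusted p = 0.0318). That last call was lost under 6 of 17 alternatives, 4 of which left out a library (floxed G-CSF replicates 1 and 3, LysMcre-labelled G-CSF replicates 2 and 3), with adjusted p from 0.0568 to 0.112.

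The annotated GENCODE start of Ifit1bl2 is separated by 127 bases from that of Ifit1. Ifit1bl2 fell with G-CSF in LysMcre-labelled neutrophils, where Ifit1 rose. Ifit1bl2 was at 1010.4, 919 and 1119.9 normalized counts in the floxed untreated libraries, at 726, 752 and 738 in the LysMcre-labelled untreated ones, at 983, 971 and 905 in the floxed G-CSF libraries and at 244, 177 and 191 in the LysMcre-labelled G-CSF ones. The LysMcre-labelled G-CSF libraries were far below every other library, and both floxed groups overlapped. Ifit1bl2 fell 3.64-fold with G-CSF in LysMcre-labelled neutrophils (SE 0.10 on the log2 scale, limma adjusted p = 2.88e-10), and its difference in floxed neutrophils was -0.09 and did not pass. The responses differed by -1.78 (SE 0.14, limma adjusted p = 7.53e-07), and the genotypes with G-CSF by -2.23 (SE 0.10, limma adjusted p = 7.79e-10), a 4.69-fold difference. Of the distinct 100-base stretches of their transcripts, 3.29% for Ifit1 and 2.91% for Ifit1bl2 also occur identically in another gene, most often each other.

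Ifit3b is a close copy of Ifit3. Ifit3 was at 698, 290.4 and 1442 normalized counts in the floxed untreated libraries, at 589, 291 and 278 in the LysMcre-labelled untreated ones, at 961, 451 and 616 in the floxed G-CSF libraries and at 208, 169.8 and 148 in the LysMcre-labelled G-CSF ones. Ifit3b was at 333, 165 and 730.3 in the floxed untreated libraries, at 344, 129.8 and 150.4 in the LysMcre-labelled untreated ones, at 387, 207 and 253 in the floxed G-CSF libraries and at 58.9, 51.9 and 64.4 in the LysMcre-labelled G-CSF ones. For both genes the LysMcre-labelled G-CSF libraries were below every other library, and the other 3 groups overlapped. With G-CSF, Ifit3 was 3.69-fold lower (limma adjusted p = 0.00338) and Ifit3b 4.62-fold lower (limma adjusted p = 8.76e-04) in LysMcre-labelled than in floxed neutrophils. Within the LysMcre-labelled genotype Ifit3b fell 3.21-fold with G-CSF (-1.68, SE 0.43, limma adjusted p = 0.00317). The fall of Ifit3 there (-1.06, SE 0.44, limma adjusted p = 0.0483) was lost under 9 of 17 alternatives, including leaving out any 1 of 5 libraries, with adjusted p from 0.0516 to 0.203. Of the distinct 100-base stretches of their transcripts, 31.7% for Ifit3 and 27.4% for Ifit3b also occur identically in another gene, most often each other. Their separate levels are therefore uncertain. Ifit2, which promotes cell death and limits viral translation, was at 407 ± 84.4 in floxed and 143 ± 11 in LysMcre-labelled libraries with G-CSF (SD, n = 3), 2.79-fold lower (-1.48, SE 0.27, limma adjusted p = 5.38e-04), and passed in neither G-CSF response.

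The OAS genes encode enzymes, or relatives of enzymes, that make 2'-5'-linked oligoadenylates, the activators of the nuclease RNase L. All 4 rose with G-CSF in both genotypes. Oas2 was at 1402, 853 and 2175 normalized counts in the floxed untreated libraries, at 1079, 726 and 1044 in the LysMcre-labelled untreated ones, at 7613, 5516 and 6259 in the floxed G-CSF libraries and at 7937, 8372 and 8732 in the LysMcre-labelled G-CSF ones. The LysMcre-labelled G-CSF libraries were the highest and the untreated genotypes overlapped. Oas2 rose 4.66-fold in floxed neutrophils (2.22, limma adjusted p = 1.65e-06) and 8.91-fold in LysMcre-labelled ones (3.16, limma adjusted p = 1.53e-08). The difference between these responses was 0.94 with limma adjusted p = 0.0642. It passed under 3 of 22 alternatives, among them edgeR (1.02) and leaving out floxed untreated replicate 2 (1.28). Oasl2 rose by 1.80 and 2.04, Oas3 by 0.95 and 0.97, and Oasl1 by 1.19 and 0.98. With G-CSF, Oas3 was at 12323 ± 1953 in floxed and 8662 ± 165 in LysMcre-labelled libraries (SD, n = 3). This difference did not pass (-0.50, limma adjusted p = 0.0888), and 14 of 17 alternatives gave no call either. The settings that called it were equal library totals (-0.62), the fit of the G-CSF groups alone and the replicate number as a block.

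Isg15, the ubiquitin-like modifier, rose with G-CSF by 1.21 in floxed (limma adjusted p = 0.00971) and by 1.70 in LysMcre-labelled neutrophils (limma adjusted p = 5.69e-04). Its floxed groups overlapped, since untreated replicate 3 at 469 exceeded G-CSF replicate 2 at 439.5. With G-CSF the genotypes were alike in mean, at 541 ± 95.7 and 525 ± 69.7 normalized counts (SD, n = 3), with a difference of -0.04 (SE 0.35). Herc6, the ligase that attaches ISG15 to proteins in mice, rose by 1.14 and 0.85 and was lower in LysMcre-labelled than in floxed libraries with G-CSF, at 285 ± 11.7 against 519 ± 95.6 (-0.84, limma adjusted p = 0.0108). Usp18, which removes ISG15 and blocks the interferon receptor, passed in neither G-CSF response and was 2.20-fold lower in LysMcre-labelled libraries with G-CSF, at 151 ± 17.6 against 338 ± 85.2 (-1.14, SE 0.32, limma adjusted p = 0.0107). That call was lost without floxed G-CSF replicate 1 (-0.95).

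Cmpk2 and Rsad2 lie next to each other on chromosome 12, Cmpk2 at 26469204-26479837 on the plus strand and Rsad2 at 26442746-26456452 on the minus strand. Cmpk2 is a mitochondrial nucleotide kinase that supplies the substrate from which viperin, the product of Rsad2, makes a chain-terminating nucleotide. Cmpk2 was at 1961, 1624 and 2705 normalized counts in the floxed untreated libraries, at 1734, 1298 and 1612 in the LysMcre-labelled untreated ones, at 1035, 662 and 704 in the floxed G-CSF libraries and at 240.4, 167 and 209 in the LysMcre-labelled G-CSF ones. It was the member that fell with G-CSF in both genotypes, with no overlap between treated and untreated libraries or between the G-CSF groups. It fell 2.61-fold in floxed neutrophils (limma adjusted p = 2.13e-05) and 7.52-fold in LysMcre-labelled ones (SE 0.19 on the log2 scale, limma adjusted p = 2.72e-09), and the responses differed by -1.53 (SE 0.27, limma adjusted p = 7.77e-04). With G-CSF it was 3.84-fold lower in LysMcre-labelled than in floxed neutrophils (limma adjusted p = 1.44e-06).

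Rsad2 averaged 1525 ± 889.5 and 1056 ± 257 in the floxed groups without and with G-CSF, and 856 ± 253 and 417 ± 35.9 in the LysMcre-labelled ones (SD, n = 3). It was 2.48-fold lower in LysMcre-labelled than in floxed libraries with G-CSF (-1.31, SE 0.32, limma adjusted p = 0.00414). Its G-CSF difference was -0.40 in floxed neutrophils, which did not pass, and -0.996 in LysMcre-labelled ones (limma adjusted p = 0.0123), the latter lost without LysMcre-labelled untreated replicate 1 (-0.78). Mov10, an RNA helicase that restricts retroelements, was at 6432, 6656 and 7019 normalized counts in the floxed untreated libraries, at 6022, 6708 and 6453 in the LysMcre-labelled untreated ones, at 11011, 10342 and 9058 in the floxed G-CSF libraries and at 4097, 4271 and 4480.2 in the LysMcre-labelled G-CSF ones. The untreated genotypes overlapped, every floxed G-CSF library was above them and every LysMcre-labelled G-CSF library below them. Mov10 rose 1.51-fold in floxed neutrophils (0.59, limma adjusted p = 4.02e-06) and fell 1.49-fold in LysMcre-labelled ones (-0.58, limma adjusted p = 3.11e-06), and the responses differed by -1.17 (SE 0.10, limma adjusted p = 1.08e-06). Isg20, an exonuclease of single-stranded RNA, rose by 1.06 and 1.18, and Eif2ak2, which encodes the translation-blocking kinase PKR, rose by 0.68 and 0.78, in floxed and LysMcre-labelled neutrophils.

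**Figure D4:**
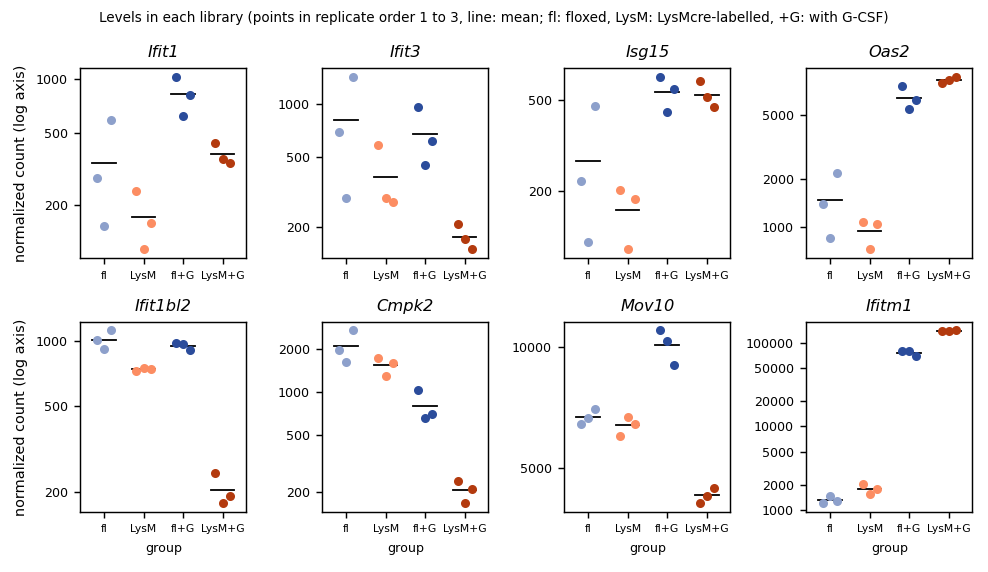
Normalized counts of 8 members (log vertical axis) in the 4 groups (horizontal axis), with 1 point for each library in replicate order and a line at the group mean. Ifitm1, Oas2, Isg15 and Ifit1 sit higher with G-CSF, Cmpk2 sits lower in both genotypes, and Ifit3, Ifit1bl2 and Mov10 are lowest in the LysMcre-labelled G-CSF libraries.

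The interferon-induced transmembrane genes, which block virus entry at membranes, were the most abundant members per length in all 4 groups. Their order differed with G-CSF. In the floxed untreated libraries Ifitm3 averaged 8879, Ifitm2 4118 and Ifitm1 1215 normalized counts per kb of exon, with Mov10 next at 1195, and in the floxed G-CSF libraries Ifitm1 averaged 69419.5, Ifitm2 41642 and Ifitm3 27529.8. Over all libraries the lowest members were Mx1 at 25.6 and Mx2 at 5.66 per kb, dynamin-like GTPases of which Mx2 is annotated as a polymorphic pseudogene. Ifitm1 was at 1219, 1485 and 1282 normalized counts in the floxed untreated libraries, at 2093, 1558 and 1785 in the LysMcre-labelled untreated ones, at 79279, 79362 and 69194 in the floxed G-CSF libraries and at 137841, 136228 and 139287 in the LysMcre-labelled G-CSF ones. The 4 groups did not overlap and stood in that order. Ifitm1 rose 57.2-fold in floxed neutrophils (5.84, SE 0.10, limma adjusted p = 1.38e-15) and 76.5-fold in LysMcre-labelled ones (6.26, limma adjusted p = 2.90e-16), and with G-CSF it was 1.82-fold higher in LysMcre-labelled than in floxed libraries (0.86, SE 0.10, limma adjusted p = 4.78e-06). The difference between the responses (0.42, SE 0.14, limma adjusted p = 0.0381) was lost under 12 of 22 alternatives, with values from 0.15 to 0.44 and adjusted p from 0.0510 to 0.552. Of those 12, 8 left out 1 library each: floxed untreated replicate 2 or 3, floxed G-CSF replicate 3, LysMcre-labelled untreated replicate 2 or 3, or any LysMcre-labelled G-CSF library.

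Ifitm2 was at 2588, 2632 and 2871 normalized counts in the floxed untreated libraries, at 3035, 2662 and 3233 in the LysMcre-labelled untreated ones, at 29106, 28675 and 24045 in the floxed G-CSF libraries and at 35078, 36236 and 38476 in the LysMcre-labelled G-CSF ones. Ifitm3 was at 5911, 4803 and 7346 in the floxed untreated libraries, at 5117, 4754 and 6353 in the LysMcre-labelled untreated ones, at 19589.8, 19214 and 17191 in the floxed G-CSF libraries and at 22056, 20508 and 20399.7 in the LysMcre-labelled G-CSF ones. For both genes the untreated genotypes overlapped, and the LysMcre-labelled G-CSF libraries were the highest. Ifitm2 rose 10.1-fold and 12.3-fold, and Ifitm3 rose 3.14-fold and 3.91-fold, in floxed and LysMcre-labelled neutrophils. Ifitm2 was 1.35-fold higher in LysMcre-labelled than in floxed libraries with G-CSF (0.43, SE 0.08, limma adjusted p = 7.88e-04), a call lost with quantile normalization (0.17). Of the distinct 100-base stretches of Ifitm2 transcripts, 34.9% also occur identically in another gene, most often Gm45717. Gm45717 overlaps 268 exon bases of Ifitm2 on the same strand, so the level of Ifitm2 is uncertain. Bst2, which encodes the virion-holding protein tetherin, rose by 0.51 in floxed neutrophils (limma adjusted p = 0.0268), lost under 6 of 17 alternatives, and Rtp4 rose by 1.15 and 1.67.

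Of the PARP and DTX3L genes, Parp9 rose with G-CSF by 0.73 and 1.07 and Parp12 by 0.81 and 0.88 in floxed and LysMcre-labelled neutrophils. Parp9 and its partner Dtx3l overlap by 458 bases on opposite strands. The strand setting of the counting is not stated, so reads from the overlap cannot be assigned with certainty. The same limit holds for Ifi35, which Gm11626 overlaps on the opposite strand over 16.8% of its exon bases. On the same strand, Gm45338 overlaps 13.9% of the exon bases of Rtp4 and Gm45193 13.7% of those of Herc6. Dtx3l rose in LysMcre-labelled neutrophils by 0.31, lost under 2 of 17 alternatives. Parp14 was lower in LysMcre-labelled than in floxed libraries with G-CSF (-0.40), a call lost under 8 of 17 alternatives. Of the other members, Ifi35 rose by 0.85 and 1.14, and Xaf1, a promoter of apoptosis, by 0.96 and 0.82, the latter lost under 6 of 17 alternatives. Samd9l, a restrictor of translation, averaged 5329.7 ± 357 in floxed and 4399 ± 164 in LysMcre-labelled libraries with G-CSF, and Sp100, a nuclear body protein, 7270.1 ± 349.6 and 5643 ± 73.8 (SD, n = 3). Both were lower in the LysMcre-labelled libraries, with differences of -0.28 (limma adjusted p = 0.00795) and -0.36 (limma adjusted p = 0.00686).

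Within groups the members rose and fell together from library to library. In the floxed untreated group, replicate 3 held the highest level of 38 of 39 members, against 36.3% of all genes, and replicate 2 the lowest of 36, against 35.0%. The exceptions were Mov10, Ifitm1 and Ifitm2, which were lowest in replicate 1, and Ifitm1, which was highest in replicate 2. In the LysMcre-labelled untreated group, replicate 1 was highest for 24 members, against 30.1% of all genes, and replicate 2 lowest for 34, against 28.2%. In the floxed G-CSF group, replicate 1 was highest for 32 members, against 41.5% of all genes, and replicate 2 lowest for 31, against 30.0%. In the LysMcre-labelled G-CSF group the highest member levels were spread over replicates 1, 2 and 3 as 16, 12 and 11. The median member deviation from the group mean was -0.05, -0.40 and 0.45 in replicates 1, 2 and 3 of the floxed untreated group, 0.17, -0.20 and 0.04 in the LysMcre-labelled untreated group, 0.20, -0.19 and 0.02 in the floxed G-CSF group, and 0.01, 0.00 and 0.00 in the LysMcre-labelled G-CSF group.

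**Figure D5:**
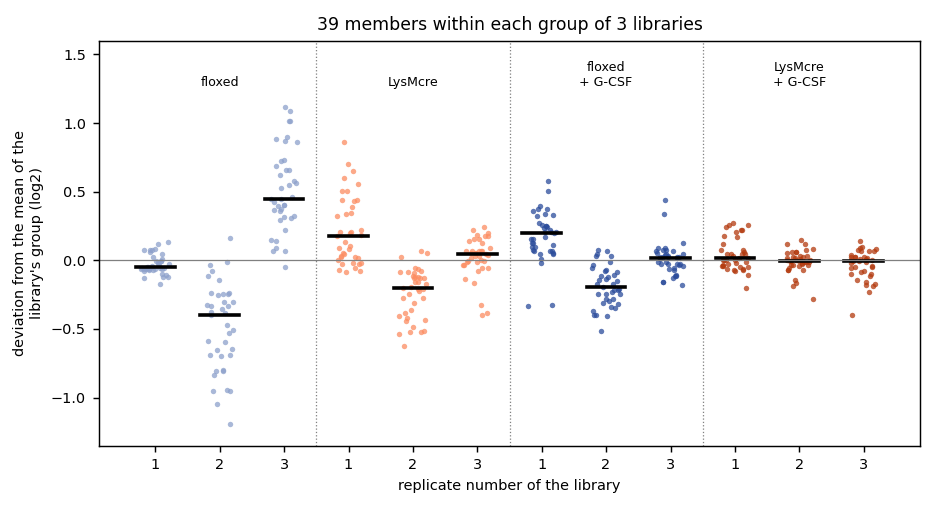
Deviation of each of the 39 members from its group mean on the log2(normalized count + 1) scale (vertical axis) in every library (horizontal axis, replicate numbers within the 4 groups); points are members and lines their median. In the floxed untreated group the medians lie at -0.40 in replicate 2 and 0.45 in replicate 3, and in the LysMcre-labelled G-CSF group all medians lie near 0.

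The spread was uneven across the groups. The median SD of a member on the log2 scale was 0.42 in the floxed untreated group, 0.21 in the LysMcre-labelled untreated group, 0.22 in the floxed G-CSF group and 0.07 in the LysMcre-labelled G-CSF group. The same median over all genes was 0.12, 0.12, 0.13 and 0.13. A range of 2-fold or more between the highest and the lowest library was seen for 18, 6, 1 and 0 members. The widest ranges were 4.96-fold for Ifit3 in the floxed untreated group, 2.65-fold for Ifit3b in the LysMcre-labelled untreated group, 2.13-fold for Ifit3 in the floxed G-CSF group and 1.61-fold for Mx2 in the LysMcre-labelled G-CSF group. In the floxed untreated group Ifit1 and Isg15 each varied 3.94-fold and Zbp1 3.52-fold.

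As a description over 12 libraries, in each of which all members share the depth and the scaling, the mean correlation between the deviations of 2 members was 0.69, and that between 2 genes of the whole table was 0.0059. It was 0.55 without floxed untreated replicate 3, 0.50 without the whole floxed untreated group, and 0.73 without 1 of each pair of near-identical members. The members that followed the others most closely were Oasl1 at 0.992 and Ifit1 at 0.991. The least alike were Ifitm1 at -0.03, Mov10 at 0.06, Ifitm2 at 0.39, Ifit1bl2 at 0.43 and Irf1 at 0.45.

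The genes outside the list whose deviations followed the mean of the members most closely over the 12 libraries were Oas1g at 0.977, Gm43197 at 0.968, Gm6548 at 0.967, Trim30a at 0.965, Slfn8 at 0.964, Slfn5 at 0.960, Irgm1 at 0.959, Trafd1 at 0.957, Gm16464 at 0.956 and Oas1a at 0.955. Of these, 7 stood in the lists of other interferon-stimulated genes or GTPases. The mean pairwise correlation was 0.54 among 13 guanylate-binding and immunity-related GTPases, 0.35 among 74 other interferon-stimulated genes, 0.25 among 13 genes that restrain interferon signalling, 0.23 among 12 receptor, kinase and STAT genes and 0.04 among 17 sensing genes.

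Depth and markers of other cells were set beside these libraries. The library with the lowest members was the deepest of its group in the floxed untreated group at 24748708 reads, in the LysMcre-labelled untreated group at 24396339 and in the floxed G-CSF group at 26472118. The 9 of 10 measured markers of plasmacytoid dendritic cells, a main source of type I interferon, summed to 2476 to 3084 normalized counts in the floxed untreated group, 2511 to 3029 in the LysMcre-labelled untreated group, 2776 to 2846 in the floxed G-CSF group and 2425 to 2728 in the LysMcre-labelled G-CSF group. That list holds the member Bst2. The floxed untreated replicate with the highest members also had the highest sum of this list, 3084 against 2491 and 2476, and the highest sum of 8 of 10 conventional dendritic cell markers, 6235 against 3331 and 4613. In the LysMcre-labelled untreated group replicate 1, with the highest members, had the lowest plasmacytoid sum, 2511 against 2779 and 3029. Its median deviation from the group mean over that list was the highest, 0.09 against -0.01 and -0.01. The sum and the median of the list therefore went opposite ways there. Conventional dendritic cell sums were 4668 to 6390 in the LysMcre-labelled untreated group, 3533 to 6468 in the floxed G-CSF group and 5209 to 7741 in the LysMcre-labelled G-CSF group. Sums of 8 B cell markers were 8840 to 12717 in the floxed untreated group, 12101 to 17936 in the LysMcre-labelled untreated group, 7029 to 10625 in the floxed G-CSF group and 10288 to 17029 in the LysMcre-labelled G-CSF group. In the LysMcre-labelled untreated group, replicate 1 had the highest members and the highest conventional dendritic and B cell sums, while in the floxed G-CSF group replicate 1 had the highest members and the lowest of these sums. The median B cell marker deviation was however lowest in LysMcre-labelled untreated replicate 1, at -0.20 against -0.02 and 0.23. The median B cell marker difference between the genotypes was -0.01 without and -0.12 with G-CSF, although the sums were higher in LysMcre-labelled groups. Sums of 6 of 8 erythroid markers were 806 to 1425 in the floxed untreated group, with the highest in replicate 3, and 755 to 1977 in the LysMcre-labelled untreated group, where replicate 3 was also the highest but the members were not. They were 1181 to 1300.3 in the floxed G-CSF group and 1148 to 1203 in the LysMcre-labelled G-CSF group. Sums of 11 of 12 monocyte and macrophage markers were 21768 to 23061 in the floxed and 21001 to 23729 in the LysMcre-labelled untreated group. With G-CSF these sums were 17092 to 21605 in floxed and 14946 to 18522 in LysMcre-labelled libraries. None of the markers measured in these lists was at 0 in any group, and the part of these markers and of depth in the spread of the members was not tested.

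The rest of the pathway was read from lists, whose counts stand against the shares of all genes given above. These were 24.1% higher and 24.6% lower with G-CSF in floxed neutrophils, 31.1% and 31.6% in LysMcre-labelled ones, and 17.1% and 18.9% between the genotypes with G-CSF. None of 17 interferon ligand genes was among the genes analysed here. Of 12 receptor, kinase and STAT genes, 8 rose and 4 fell with G-CSF in floxed neutrophils, and 8 rose and 3 fell in LysMcre-labelled ones. Ifngr1, the binding chain of the interferon-gamma receptor, rose by 2.66 and 3.07, Il10rb by 1.48 and 2.02, Stat3 by 1.51 and 1.96, and Stat2, a part of ISGF3, by 1.21 and 1.63. With G-CSF, 8 of the 12 were higher and 2 lower in LysMcre-labelled than in floxed libraries. Jak2 was 0.99 higher (limma adjusted p = 2.89e-09), Ifnar1 0.58 higher (limma adjusted p = 3.78e-06), and Ifnlr1, the interferon-lambda receptor, differed by -0.87 (limma adjusted p = 7.20e-08). The responses of Jak2 differed by 0.95 and those of Ifnar1 by 0.61.

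Of 13 genes that restrain interferon signalling, 5 rose and 2 fell with G-CSF in floxed neutrophils, and 7 rose and 2 fell in LysMcre-labelled ones. Socs1, the inhibitor of JAK1 and TYK2, was at 137 ± 6.78 normalized counts in floxed and 361 ± 5.53 in LysMcre-labelled libraries with G-CSF (SD, n = 3). It rose by 1.64 in LysMcre-labelled neutrophils (limma adjusted p = 2.64e-09) and did not pass in floxed ones (0.13), and the responses differed by 1.51 (SE 0.15, limma adjusted p = 5.37e-06). Ptpn1, a phosphatase of JAK2 and TYK2, rose by 1.12 and 1.85, with responses that differed by 0.74. Of 17 sensing genes, 5 rose and 6 fell in floxed and 6 rose and 6 fell in LysMcre-labelled neutrophils. Mb21d1, which encodes cGAS, rose by 1.64 and 3.01, with responses that differed by 1.36 (SE 0.16, limma adjusted p = 2.57e-05), Myd88 rose by 1.68 and 2.29, while Tlr7 (-1.22 and -1.56) and Aim2 (-1.17 and -1.71) fell.

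Of 74 other interferon-stimulated genes, 36 rose and 9 fell with G-CSF in floxed neutrophils, and 34 rose and 14 fell in LysMcre-labelled ones. Trim30a rose by 2.77 and 3.48, Trim30d by 2.11 and 2.45, and Slfn4 by 1.46 and 2.27. With G-CSF, 7 were higher and 20 lower in LysMcre-labelled than in floxed libraries. Ddx60 differed by -1.42 and Oas1c by -0.97, while Ly6a was 1.35 higher and Cd274, which encodes PD-L1, 1.23 higher. Of 13 guanylate-binding and immunity-related GTPases, 9 rose and 1 fell in each genotype, and with G-CSF 1, Gbp9, was lower in LysMcre-labelled libraries (-0.39), a call lost under 8 of 17 alternatives. Gbp2 was at 2006 ± 143 in floxed and 1937 ± 299 in LysMcre-labelled libraries with G-CSF (SD, n = 3), after rises of 3.04 and 3.09.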

How the data were processed

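RNA-seq values were read from the table of normalized counts deposited by the authors, a signal scaled by a size factor for each library, over 13935 genes. The genome build was mm10, per the submitters' processing notes, with aligner, counter and strandedness not given in the sources used here. Dividing each column by its step gave whole reads for 100.0% of values within 0.01 of a read, and the sums of these reads are the depths given above. The tests had been designed for normalized values, so limma 3.58.1 in R 4.3.3 was run on log2(normalized count + 1), over 4 groups in 1 fit with a trended prior, and genes with a mean under 10 were left out. edgeR 4.0.16 and DESeq2 1.42.0 on the recovered reads were alternatives, with other pseudocounts (0.5 and 5), filters, scalings, a replicate block and leaving out each library. An alternative's loss of a call is counted over 17 settings, or 22 for the interaction. The code was tested on simulated data.

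Precision is set by a spread pooled over 4 groups of 3 libraries, with 8 residual degrees of freedom before the trended prior is added. The median member SD ran from 0.42 in the floxed untreated group to 0.07 in the LysMcre-labelled G-CSF group. A pooled SE therefore need not match the spread of the groups compared. A gene was placed by GENCODE M21 (39 members matched) and promoter windows by RefSeq on GRCm38.p6. Values in every library are given for the members past 0.05 with the 3 largest rises and falls of each comparison, the 3 highest means and the 3 largest spreads. Genes outside the members are the 10 whose deviations followed them most closely, and up to 4 genes for each pathway list and comparison. The members and all lists were chosen with earlier results of these data known. In the table, 17 gene names had been turned into dates and were left as they stand. A gene of the pathway lists is not reported here.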

Additional observations from a re-analysis of the deposited data

Results flagged for a closer look

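The G-CSF response differed between the genotypes, by the interaction term in limma, for 6 of 39 members. That is 15.4% of them, against 22.4% of all genes, and the 2 shares are not read as a difference. The response in LysMcre-labelled neutrophils minus that in floxed ones was 0.42 for Irf1 and 0.58 for Irf9, both transcription factors of interferon signalling, and 0.42 for Ifitm1, a block to virus entry, on the log2 scale. It was -1.78 for Ifit1bl2 of the IFIT cluster, -1.53 for the nucleotide kinase Cmpk2 and -1.17 for the RNA helicase Mov10. Irf1, Ifit1bl2, Cmpk2 and Mov10 kept these calls under all 22 alternatives, Irf9 under 16 and Ifitm1 under 10.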

How the results depend on the processing

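Of 82 called member differences over the 4 contrasts with calls, 63 were called under every alternative and 19 lost the call in 1 or more, and 0 reversed. Without G-CSF the count of members called was 0 in limma and 2 with DESeq2, and ranged from 0 to 1 when each library was left out, the 1 being Ifitm1 at 0.55 without LysMcre-labelled untreated replicate 2. The median member difference without G-CSF ranged from -0.54 to -0.14 over the same leave-outs. The count for the interaction ranged from 4 to 11 when each library was left out, with 11 reached without floxed untreated replicate 2. The other counts ranged over all alternatives from 14 to 26 for the genotypes with G-CSF, from 24 to 31 for G-CSF in floxed and from 26 to 35 for G-CSF in LysMcre-labelled neutrophils. Counts of all genes are not given here for the leave-outs, so these ranges cannot be set against the whole table. Scaling every library to an equal total moved the median of all genes to -0.13 for the genotypes with G-CSF, -0.26 for G-CSF in LysMcre-labelled neutrophils and -0.18 for the interaction, and 12 members then lay above and 27 below 0 in the interaction. The cause of each change was not tested. Over all genes, same-numbered libraries did not deviate together in every pair (correlations from -0.18 to 0.32 over 18 pairs, 4 of them over 0.1, and 6 of 12 libraries closest to their own number). The numbers were therefore not taken as a pairing, although replicate 2 was lowest for most members in 3 of 4 groups. Between untreated and G-CSF libraries of 1 genotype, the correlations were 0.32, 0.20 and 0.06 in floxed replicates 1 to 3. They were 0.21, -0.03 and 0.03 in LysMcre-labelled ones. The block used here joins all 4 groups by number, and a pairing within each genotype was not tested. With the replicate number as a block, 0 members were called between the genotypes in untreated libraries, 21 between them with G-CSF, 27 for the response in floxed and 32 for that in LysMcre-labelled neutrophils, and 7 for the interaction. Of all genes, the block called 4892 between the genotypes with G-CSF and 2967 for the interaction, against 5013 and 3112 in the main fit. It called 6673 for the response in floxed and 8692 for that in LysMcre-labelled neutrophils, against 6784 and 8717. The block added Oas3, Oasl1 and Xaf1 between the genotypes with G-CSF, Parp14 in floxed neutrophils, and Oas2 and Ifit2 for the interaction, from which it dropped Ifitm1. Without G-CSF it raised the members at an unadjusted p under 0.05 from 17 to 25, and all genes from 465 to 484. Levels under 3.54 normalized counts can rest on 3 reads or fewer, and no member mean was that low.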

Other observations

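Whether a member's promoter window held GAAA, any 2 bases and GAAA again was set beside its values as a description. The 13 members with a match had a median genotype difference with G-CSF of -0.50, and the 17 members whose window had none, -0.30. The median G-CSF differences were 0.51 and 0.63 with a match, in floxed and LysMcre-labelled neutrophils, and 0.83 and 0.85 without one. The median correlation with the other members over 12 libraries was 0.947 with and 0.922 without a match. The same letters occurred in 80.0% of the windows of the guanylate-binding and immunity-related GTPases, in 40.5% of those of the other interferon-stimulated genes, in 15.4% of those of the genes that restrain interferon signalling, in 10.0% of those of the receptor, kinase and STAT genes and in 7.14% of those of the sensing genes.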
